A study of Mus musculus with 6 samples.

Results

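Apoe and 8 other genes of the liver X receptor (LXR) pathway, 9 of the 46983 genes listed, were followed through 6 bulk RNA-seq libraries of mouse splenic B cells driven toward IgA. They were the receptor genes Nr1h3 and Nr1h2, the lipid exporters Abca1 and Abcg1, the lipid-carrying proteins Apoe and Pltp, the ubiquitin ligase gene Mylip, the phospholipid-remodelling gene Lpcat3 and the cholesterol esterification gene Soat1. These genes were picked by name with differences between KO and WT cells already known, so their values in that comparison are a description and carry no test.

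The cells came from the spleens of mice kept on a C57BL/6 background. In the 3 KO libraries both Hif1a alleles were floxed (Hif1a f/f) and cre was expressed from Mb1 (Cd79a), which is active throughout the B lineage, so deletion is restricted to B-lineage cells and any other cell in the culture keeps Hif1a. The 3 WT libraries came from littermates, either Hif1a f/+ carrying cre or Hif1a f/f lacking it. Neither the genotype of a given WT library nor the age of the mice is stated in the labels. All 6 cultures received 5 μg/ml LPS together with TGF-β, BAFF and IL-5, each at 10 ng/ml, and were taken on day 3, so each library holds activated cells and there is no resting control. Whether the replicates were separate mice or separate wells is not stated, so the p-values below measure the spread between these libraries, which may be technical. Values are FPKM (fragments per kilobase of gene, scaled to the depth of the library), and the depth recovered from them was 25.0 to 37.2 M reads per library.

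LXRα (Nr1h3) and LXRβ (Nr1h2) are nuclear receptors that pair with retinoid X receptors and are switched on by oxidized forms of cholesterol. They raise the genes that move cholesterol out of a cell: ABCA1 and ABCG1 pass it through the membrane, and apolipoprotein E accepts and carries it. Other targets limit uptake or change the membrane itself, as MYLIP does by sending lipoprotein receptors for degradation and LPCAT3 by adding polyunsaturated fatty acids to phospholipids. In lymphocytes the pathway is known for restraining the cholesterol supply that dividing cells need.

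The libraries did not separate cleanly by genotype. WT replicate 1 lay with the KO libraries on the first principal component (54.7% of the variance), at −15.7 against −19.5 to −7.1 in KO and 25.9 to 26.2 in the other two WT libraries. No gene of 13312 tested passed an adjusted p of 0.05 in limma (Benjamini-Hochberg), 929 had an unadjusted p under 0.05, and limma-voom on recovered reads also called 0, whereas 1251 passed without WT replicate 1. Hif1a itself was at 36.5, 49.8 and 45.8 FPKM in WT and 46.5, 45.6 and 52.8 in KO (adjusted p = 0.701), but a value summed over the whole gene includes exons outside the floxed part and checks no label. KO replicate 2 was the library with RNA from the Y chromosome (Ddx3y at 43.3 FPKM, at most 0.00945 elsewhere). By this gene the KO libraries did not all come from the same mouse, and sex was not matched within KO. B-cell markers were high in every library (Cd22 from 119 to 187 FPKM), while Cd3e of T cells was at most 0.134.

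Promoter sequence is shown first for 3 members with a higher mean in KO than in WT. They stand for different roles: the carrier Apoe, the exporter Abca1 and the ligase Mylip. Each run is the 250 bases before the RefSeq start on GRCm38.p6, 5′ to 3′ on the strand of the gene: chr7:19699189-19699438 (minus) for Apoe, chr4:53159896-53160145 (minus) for Abca1 and chr13:45389492-45389741 (plus) for Mylip. Capitals mark the hypoxia-inducible factor core (ACGTG or GCGTG, either strand) and, in Abca1, the stretch nearest to the LXR direct repeat, which is AGGTCA, then any 4 bases, then AGGTCA again.
Apoe: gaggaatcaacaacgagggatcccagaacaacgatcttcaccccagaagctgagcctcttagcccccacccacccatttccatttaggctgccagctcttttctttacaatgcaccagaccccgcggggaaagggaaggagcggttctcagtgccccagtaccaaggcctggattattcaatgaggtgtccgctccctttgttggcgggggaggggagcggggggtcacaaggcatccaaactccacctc
Abca1: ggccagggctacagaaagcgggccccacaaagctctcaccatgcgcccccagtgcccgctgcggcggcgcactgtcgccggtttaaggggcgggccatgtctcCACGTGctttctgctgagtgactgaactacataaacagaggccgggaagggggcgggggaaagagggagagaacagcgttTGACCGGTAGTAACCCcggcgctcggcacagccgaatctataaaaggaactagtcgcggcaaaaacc
Mylip: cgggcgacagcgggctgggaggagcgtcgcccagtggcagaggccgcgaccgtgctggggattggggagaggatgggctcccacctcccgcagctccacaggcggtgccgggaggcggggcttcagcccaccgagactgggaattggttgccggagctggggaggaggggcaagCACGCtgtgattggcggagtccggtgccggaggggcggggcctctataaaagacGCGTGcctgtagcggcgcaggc

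The RefSeq table held windows for 8 of the 9 members, 11 windows of 300 bases in all (250 before and 50 after a start). Abcg1 had no entry. The direct repeat, searched on both strands, was exact in 0.0152% of all promoters and present with up to 2 mismatches in the fixed bases in 3.02% of them, and in 0 of the 11 member windows. With up to 3 mismatches, a limit added after that result, it was present in 21.9% of all promoters and in 1 member window, that of Abca1, where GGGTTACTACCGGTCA reads on the opposite strand of the sequence above and its end farthest from the start lies at −67. The single repeat unit AGGTCA was in 16.3% of promoters and in 0 member windows. The hypoxia-inducible factor core was in 43.8% of promoters and in 5 of the 11 windows, those of Soat1, Pltp, Abca1, Lpcat3 and Mylip. A match is a description of letters, binding was not measured here, and distal elements lie outside these windows.

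Nr1h2, the more widely expressed LXR gene (ENSMUSG00000060601, chromosome 7, 44549616 to 44553951, minus strand), was steady across the libraries. In the order of replicates 1 to 3, kept below, the WT libraries had 55.2, 50.6 and 51.9 FPKM and the KO libraries 47.0, 53.0 and 49.9 FPKM. The groups overlapped, the KO mean was 0.951-fold the WT mean of 52.6 ± 2.36 FPKM (SD, n = 3), and the fitted log2 fold change was −0.07 (SE 0.07). Nr1h3, the LXR gene best known from macrophages and liver (ENSMUSG00000002108, chromosome 2, 91184061 to 91202834, minus strand), was near the floor of detection at 0.239, 0.883 and 0.763 FPKM in WT and 0.546, 0.716 and 0.640 in KO. It was lowest in WT replicate 1 and highest in the other two WT libraries, the reverse of most targets below. Those values rest on 13 to 40 reads a library, and the counting intervals of WT replicate 1 (13 reads, 95% exact Poisson interval 6.92 to 22.2) and WT replicate 2 (40 reads, 28.6 to 54.5) did not meet. The fitted difference of Nr1h3 was 0.03 (SE 0.18) on the log2(FPKM + 1) scale and changed sign to −0.16 without WT replicate 1.

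Nr1h2 was thus the main LXR transcript in all 6 libraries. The ratio of its FPKM to that of Nr1h3 was 57.3 and 68.0 in WT replicates 2 and 3, from 74.0 to 86.1 in KO and 231 in WT replicate 1. Per kilobase of the longest GENCODE transcript the ratios were lower, from 47.2 to 191, and in the same order.

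**Figure D1:**
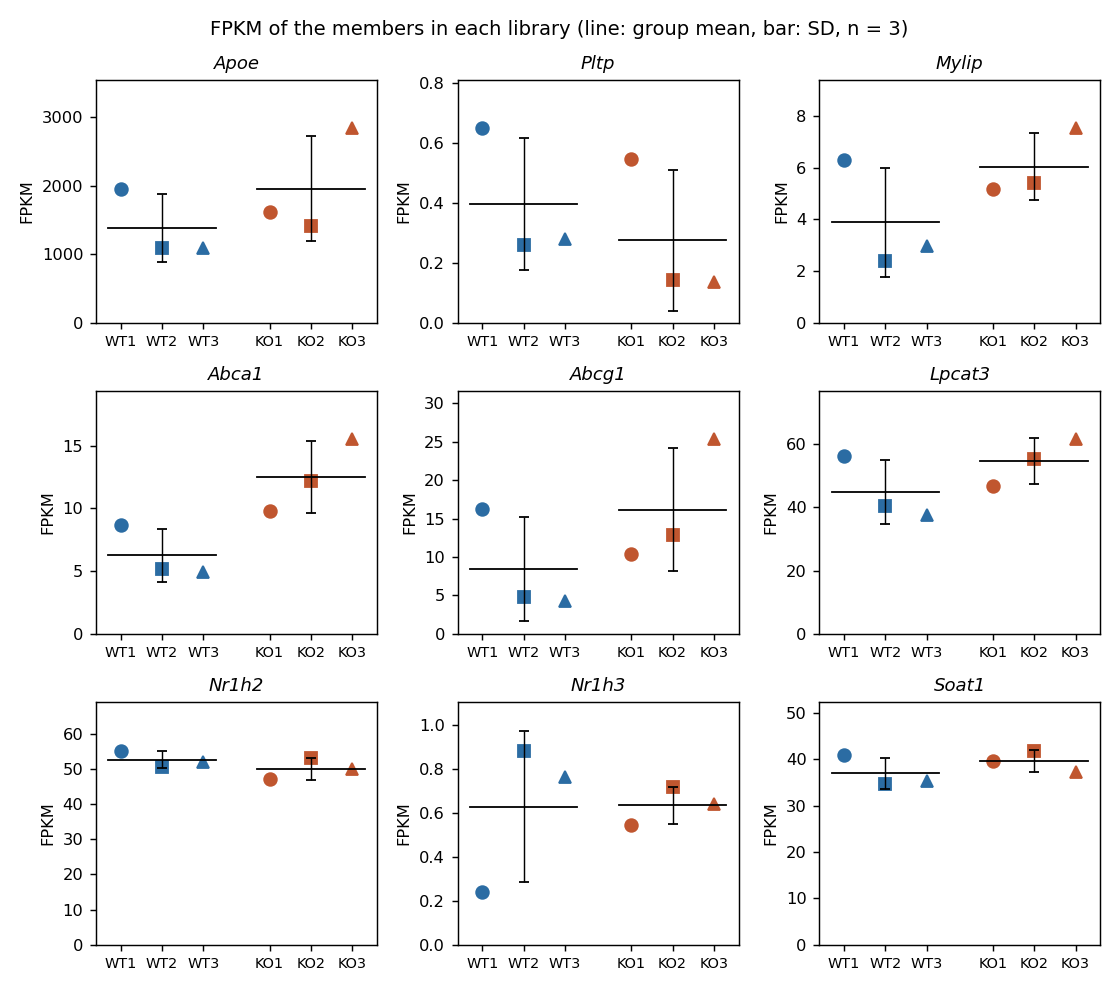
FPKM of the 9 genes in each library, 1 panel a gene, with each vertical axis starting at 0 and its own scale; blue points are WT and orange points KO replicates 1 to 3, lines are group means and bars SD (n = 3). In the Apoe, Abcg1, Mylip and Lpcat3 panels WT replicate 1 sits among the KO points, and in the Abca1 panel all 3 KO points, from 9.82 to 15.5 FPKM, lie above all WT points.

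Abca1, which passes cholesterol and phospholipid to lipid-poor apolipoproteins (ENSMUSG00000015243, chromosome 4, 53030787 to 53159895, minus strand), was at 8.64, 5.19 and 4.90 FPKM in WT and 9.82, 12.2 and 15.5 FPKM in KO. All KO libraries were above all WT libraries, although KO replicate 1 exceeded WT replicate 1 by a small margin. The KO mean of 12.5 ± 2.85 FPKM was 2.0-fold the WT mean of 6.24 ± 2.08 (SD, n = 3), and the fitted log2 difference of 0.91 (SE 0.23) ranged from 0.76 without KO replicate 3 to 1.14 without WT replicate 1. With 702 to 2553 reads in a library, counting error is small beside these differences. In RNA from whole cultures, fewer cells of a type and less RNA per cell cannot be told apart, for this gene and for those below.

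Abcg1, the exporter that loads mature lipoprotein particles (ENSMUSG00000024030, chromosome 17, 31057675 to 31117988, plus strand), was the most variable of the members tested. It was at 16.2, 4.75 and 4.25 FPKM in WT and 10.4, 12.8 and 25.3 FPKM in KO. The groups overlapped through WT replicate 1 alone, which was 3.59-fold the mean of the other two WT libraries and second only to KO replicate 3. The means were 8.38 ± 6.74 FPKM in WT and 16.2 ± 8.01 in KO (SD, n = 3), a 1.93-fold difference that became 3.6-fold without WT replicate 1. On the log2 scale the difference was 1.0 (SE 0.51), with a range from 0.65 without KO replicate 3 to 1.55 without WT replicate 1. Abcg1 exceeded Abca1 most in WT replicate 1 and KO replicate 3, with FPKM ratios of 1.87 and 1.64, against 1.05 to 1.06 in the other KO and 0.867 to 0.914 in the other WT libraries.

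Apoe (ENSMUSG00000002985, chromosome 7, 19696109 to 19699188, minus strand) was by far the most abundant member. Its FPKM was 1953, 1091 and 1092 in WT and 1614, 1414 and 2837 in KO, which placed it between rank 22 (KO replicate 3) and rank 98 (WT replicate 3) among all genes listed. It took 0.0946% to 0.246% of all recovered reads. WT replicates 2 and 3 were nearly equal and the lowest, WT replicate 1 lay above 2 of the KO libraries, and KO replicate 3 was the highest. Mean values of 1379 ± 498 FPKM in WT and 1955 ± 771 in KO (SD, n = 3) differed 1.42-fold, by less than 1 SD of the KO libraries. The fitted log2 difference of 0.49 (SE 0.32) ranged from 0.19 without KO replicate 3 to 0.77 without WT replicate 1. The scale of these levels depends on the gene length used: per kilobase of the longest transcript Apoe was at 669.2 to 1741, still above every other member in every library.

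Pltp encodes phospholipid transfer protein, which moves phospholipid between lipoproteins (ENSMUSG00000017754, chromosome 2, 164839518 to 164857711, minus strand). It was at 0.649, 0.260 and 0.279 FPKM in WT and 0.547, 0.141 and 0.135 FPKM in KO. These are 5 to 30 reads a library, its mean was under the 0.5 FPKM needed for the fit, and the groups overlapped. Its exons share 495 bases with Ctsa on the opposite strand, which was at 88.3 to 109 FPKM, and the strand setting of the read counting is not given in the sources used here, so reads of Pltp and Ctsa in the shared bases cannot be told apart.

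Mylip, the ligase that removes lipoprotein receptors (ENSMUSG00000038175, chromosome 13, 45389742 to 45412022, plus strand), was at 6.31, 2.39 and 2.97 FPKM in WT and 5.18, 5.42 and 7.53 FPKM in KO. It ordered the libraries as Abcg1 and Lpcat3 did at the top, with KO replicate 3 first, WT replicate 1 second and WT replicates 2 and 3 last. The means, 3.89 ± 2.11 FPKM in WT and 6.04 ± 1.3 in KO (SD, n = 3), differed 1.55-fold, or 2.25-fold without WT replicate 1. The log2 difference was 0.59 (SE 0.29) and was lowest without WT replicate 2, at 0.37, and highest without WT replicate 1, at 0.93.

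The enzymes varied less. Lpcat3 (ENSMUSG00000004270, chromosome 6, 124663027 to 124704418, plus strand) was at 56.3, 40.5 and 37.5 FPKM in WT and 46.9, 55.4 and 61.5 in KO. Its groups overlapped through WT replicate 1, and the means differed 1.22-fold, with a log2 difference of 0.30 (SE 0.17). Its exons share 334 bases with Emg1 on the opposite strand, at 74.9 to 88.0 FPKM. Soat1, the acyltransferase that turns free cholesterol into the esters stored in lipid droplets (ENSMUSG00000026600, chromosome 1, 156424525 to 156474331, minus strand), was at 40.9, 34.6 and 35.4 FPKM in WT and 39.7, 41.9 and 37.2 in KO. It overlapped in the same way and its difference was 0.10 on the log2 scale (SE 0.086).

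Per deposited gene length the WT means fell in the order Apoe, Nr1h2, Lpcat3, Soat1, Abcg1, Abca1, Mylip, Nr1h3 and Pltp. Neighbours from Nr1h2 to Soat1 overlapped in their WT values (Lpcat3 ranged from 37.5 to 56.3 FPKM), as did Abcg1, Abca1 and Mylip among themselves, and also Nr1h3 and Pltp. At the steps from Apoe to Nr1h2, from Soat1 to Abcg1 and from Mylip to Nr1h3 the WT values did not overlap. The last step was narrow beside the spread, with Mylip at 2.39 to 6.31 FPKM and Nr1h3 at 0.239 to 0.883. Per kilobase of the longest transcript the WT values of Lpcat3 (16.1 to 24.2) lay apart from those of Nr1h2 (30.7 to 33.5) and Soat1 (8.36 to 9.88) as well.

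Of the 9 members 8 were tested, 7 of them with a higher and 1, Nr1h2, with a lower KO value in the fit. None was called, beside 0.0% of all genes, and 1 member, Abca1, had an unadjusted p under 0.05, beside 6.98%. The same gene was the 1 member with groups apart, beside 10.1% of all genes (4.06% with KO higher and 6.03% with KO lower). The median member difference was 0.39 on the log2 scale, against −0.03 over all genes tested. Without WT replicate 1, Abca1, Abcg1 and Mylip passed the adjusted p, 3 of 8 beside 9.4% of all genes (3.64% with KO higher and 5.75% with KO lower), and the median was 0.62 against −0.05. In that fit 6 members were apart with KO higher and 1 lower, beside 18.4% and 32.0% of all genes, 50.5% together. Since this contrast chose the members, nothing is read from these counts. The signs of the 8 differences were the same under median-ratio scaling, quantile normalization and removal of immunoglobulin genes, while that of Nr1h3 turned to −0.14 with library weights and was also below 0 without WT replicate 1 or KO replicate 2.

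**Figure D2:**
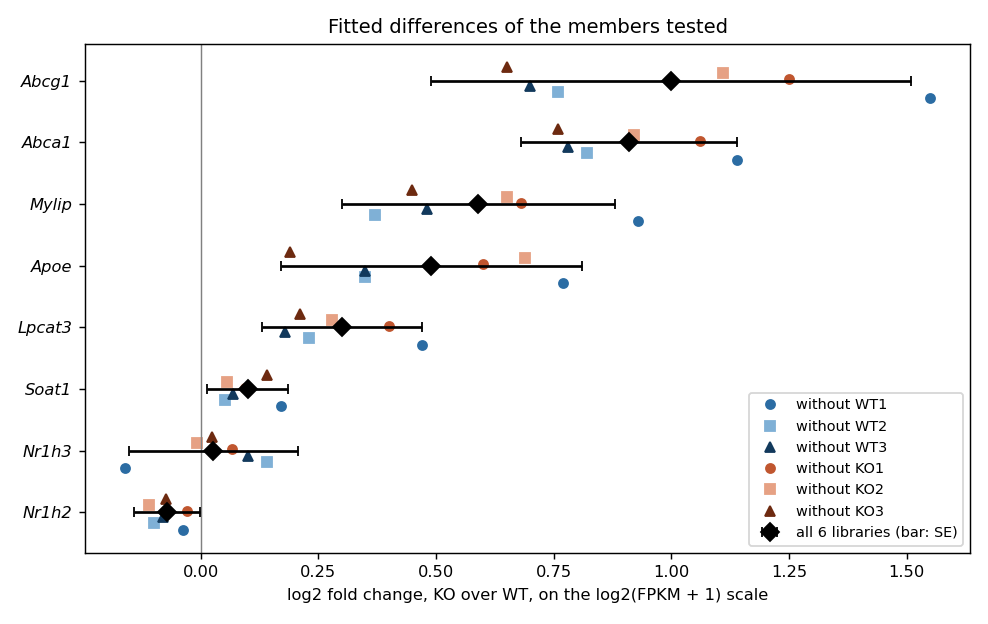
Log2 fold change of KO over WT on the log2(FPKM + 1) scale (horizontal) for the 8 members tested (vertical); black diamonds use all 6 libraries with bars of 1 SE, and coloured points leave out 1 library each. For Abcg1, Abca1, Mylip, Apoe and Lpcat3 the point without WT replicate 1 lies farthest to the right, at 1.55, 1.14, 0.93, 0.77 and 0.47, and the points of Nr1h3 fall on both sides of 0.

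The order of libraries was shared more widely than the split by genotype. WT replicates 2 and 3 were the lowest of the 6 libraries for 6 of the 8 members tested, all except the receptors, and for 17.0% of all genes tested. KO replicate 3 was also the highest for 5 of them, beside 7.71% of all genes. This order was picked out after the values were seen and is given as a description.

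Some markers of other cells moved with it. The summed FPKM of 18 macrophage and monocyte markers was 293 and 178 in WT replicates 2 and 3, against 79.9 in WT replicate 1 and 74.7 to 86.0 in KO. Adgre1 made up most of the lower sums, at 59.8, 91.1 and 81.1 FPKM in WT and 67.7, 69.7 and 55.5 in KO. Hmox1 was at 4.77, 99.8 and 49.5 in WT and 5.32 to 6.12 in KO. Not all markers had this order: Mrc1 and Itgam were lowest in WT replicate 3, at 0.714 and 0.0678 FPKM. Timd4 was highest in WT replicate 1, at 0.0618 FPKM. Lyz2 was at 6.18, 58.3 and 26.2 FPKM in WT and 0.60, 2.23 and 3.70 in KO, and the scavenger receptor gene Marco was at 0.164, 18.8 and 7.31 in WT and 0.313 to 0.634 in KO. Apoe, which macrophages also make, was lowest in the 2 libraries where Lyz2 and Marco were highest. Of the 18 markers 8 could be tested, 0 were called with all libraries and 1 gene, Cd163, was at 0 throughout. C1qa and Csf1r, also among the 18, were at most 0.193 and 0.176 FPKM in WT replicate 1 and the KO libraries. Which cells the Apoe RNA came from was not tested.

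**Figure D3:**
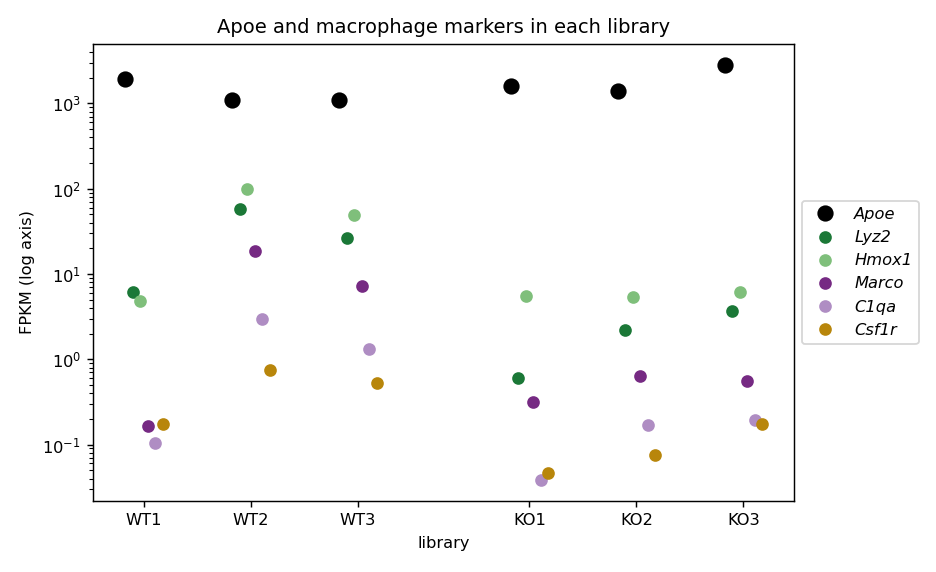
FPKM on a log axis (vertical) of Apoe, in black, and of 5 macrophage genes, in colour, in each library (horizontal). The markers drawn are highest in WT replicates 2 and 3, where Lyz2 is at 58.3 and 26.2 FPKM and Apoe at its lowest, 1091 and 1092 FPKM.

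Some plasma-cell markers had the members' order of libraries, with WT replicates 2 and 3 lowest for 3 of the 5 tested (Prdm1, Xbp1 and Jchain). The sum over 6 of them was 715, 429 and 399 FPKM in WT and 681, 505 and 906 in KO. Prdm1, which encodes the plasma-cell regulator Blimp-1, was at 40.0, 17.1 and 16.7 FPKM in WT and 41.3, 29.2 and 55.9 in KO, and Jchain at 182, 90.5 and 84.0 in WT and 173, 142 and 220 in KO. Both had the highest value in KO replicate 3 and the lowest in WT replicates 2 and 3, as Apoe did. Irf4 was lowest in KO replicate 2, at 126, 104 and 101 FPKM in WT and 130, 96.9 and 152 in KO. Sdc1, the plasma-cell surface marker, did not have that order, at 4.67, 3.80 and 3.19 in WT and 2.68, 3.67 and 4.01 in KO (log2 difference −0.14), and Tnfrsf17 was at most 0.179. Neutrophil markers summed to 37.5 FPKM in WT replicate 1, mainly S100a9 at 19.9 and S100a8 at 10.9, and to at most 0.528 elsewhere. Those 2 values in WT replicate 1 rest on only 23 and 100 reads. Erythroid markers summed to 13.0 and 9.48 in WT replicates 2 and 3 and to 0.956 to 1.54 in the other 4 libraries. Sums over dendritic cell, T cell, NK cell and stromal or endothelial markers were 12.1 to 17.9, 3.5 to 6.29, 1.06 to 2.51 and 76.7 to 98.4 FPKM, the last almost all Pecam1 (76.0 to 97.7). The methods describe cultures begun from follicular B cells sorted by CD21 and CD23, a gate that would remove these other cell types, while the labels name splenic B cells and no gate. The part of such cells in the members' values was not tested.

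The genes closest to Apoe in shape over the 6 libraries came from 969 genes with a range of at least 1 on the log2 scale. The smallest root mean square differences, after each gene's mean was taken off, belonged to Trib1 (0.0928), Bhlha15 (0.0952), Igkv4-55 (0.105), S1pr1 (0.106), Kifc3 (0.114) and Xbp1 (0.117). Xbp1, a transcription factor of secretory cells, was at 363, 213 and 193 FPKM in WT and 334, 233 and 474 in KO. Bhlha15, also known as Mist1 in secretory cells, was at 6.73, 3.11 and 3.25 FPKM in WT and 5.97, 4.05 and 9.10 in KO. All 6 repeat the Apoe order at both ends, with KO replicate 3 highest and WT replicates 2 and 3 lowest. That follows from choosing them by closeness to Apoe in these libraries, and no shared role was tested. For the other members with that range the nearest genes were Crybb1 (0.111), Rhobtb1 (0.133) and Cebpd (0.168) for Abca1, Itln1 (0.219), Ighv1-43 (0.231) and Krt222 (0.262) for Abcg1, and Smagp (0.0365), Acss1 (0.0736) and Scn4a (0.0833) for Mylip.

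Other LXR pathway genes, 103 in 10 lists that leave the members out, gave the setting. With all libraries 0 of the 70 tested were called by limma, 5 had an unadjusted p under 0.05 (2 higher, 3 lower in KO), and 39 had a higher and 31 a lower fitted value, with a median of 0.01. Among 19 further LXR targets 9 were tested, 7 higher and 2 lower, with a median of 0.26, and 0 were called. Scd1, the desaturase that makes monounsaturated fatty acids, was at 105, 41.3 and 43.1 FPKM in WT and 93.7, 95.2 and 115 in KO. Its log2 difference was 0.81 (SE 0.34, adjusted p = 0.626, limma), and without WT replicate 1 it was 1.24 (adjusted p = 0.00429, with 0.00429 to 1.0 over all alternatives). Scd2, a related desaturase, was at 79.4, 40.0 and 39.0 FPKM in WT and 65.0, 70.0 and 105 in KO, with 0.64 (SE 0.30) overall. Both had WT replicates 2 and 3 lowest and WT replicate 1 among the KO values.

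Apoc2, the apolipoprotein that activates lipoprotein lipase and lies near Apoe on chromosome 7, was at 8.79, 2.09 and 1.73 FPKM in WT and 9.36, 15.5 and 7.51 in KO. It differed by 1.38 (SE 0.50, adjusted p = 0.626) with all libraries and by 1.96 without WT replicate 1 (adjusted p = 0.0144 in limma, 0.0144 to 1.0 over the alternatives), and its highest value was in KO replicate 2, not in KO replicate 3. Cd5l, a secreted protein first known from macrophages, was at 15.1, 5.62 and 7.28 FPKM in WT and 16.6, 11.4 and 31.0 in KO, a difference of 1.0 (SE 0.43, adjusted p = 0.626). Srebf1, which encodes SREBP-1 and is a well-known target of LXR, was at 66.7 to 88.1 FPKM in all libraries with a difference of 0.13 (SE 0.10). Fasn, which encodes fatty acid synthase, was at 57.8 to 72.4 FPKM with −0.03, or 0.015 under median-ratio scaling. Lpl, which encodes lipoprotein lipase, was at 0.740, 1.07 and 0.879 in WT and 0.292, 0.464 and 0.159 in KO, with groups apart and a difference of −0.54 (SE 0.14, adjusted p = 0.626). The fitted values of these targets thus had both signs.

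**Figure D4:**
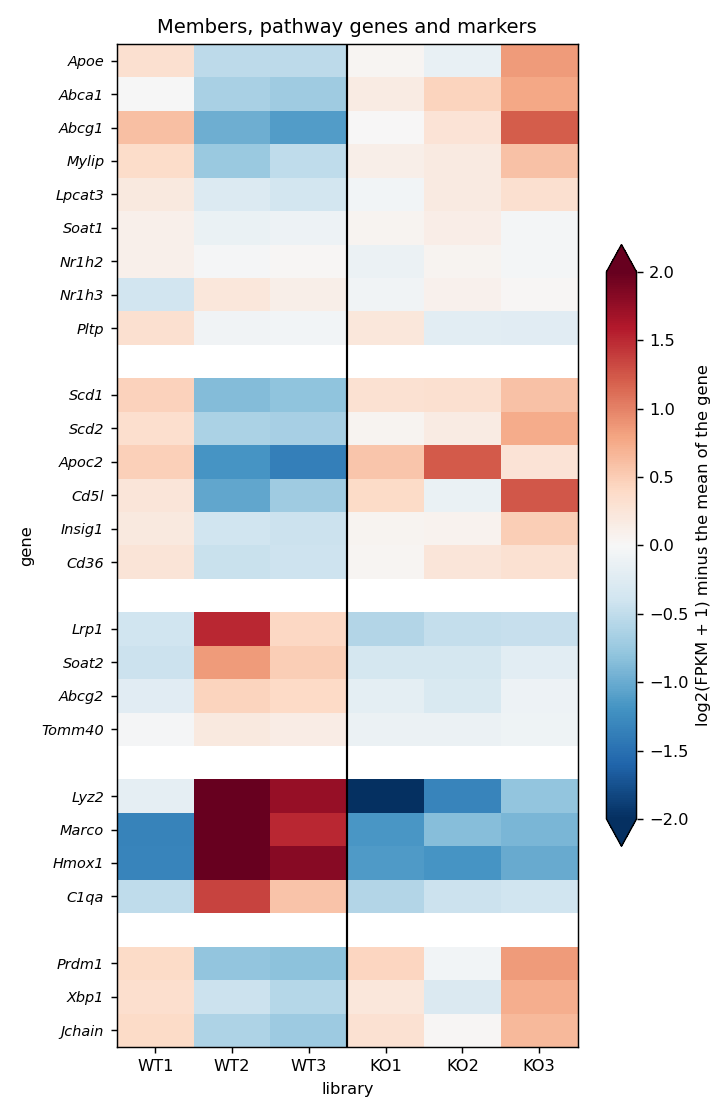
Deviation of log2(FPKM + 1) from the mean of each gene (colour, red above and blue below, cut at 2 either way) in the 6 libraries (columns). Rows are the members, some named pathway genes, some macrophage markers (Lyz2, Marco, Hmox1 and C1qa) and some plasma-cell markers (Prdm1, Xbp1 and Jchain). Markers with another order of libraries, among them Mrc1, Itgam, Irf4 and Sdc1, are not drawn. WT replicates 2 and 3 are blue for Apoe, Abca1, Abcg1 and Mylip and for Scd1, Scd2 and Apoc2, and red for Lrp1, Soat2 and the macrophage markers drawn.

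Genes that feed or gate the receptors showed small fitted differences. Of 15 partners and coregulators 14 were tested and 0 called, with a median of −0.0048. Rxra was at 55.0, 74.0 and 71.9 FPKM in WT and 61.4, 52.3 and 59.5 in KO (log2 difference −0.20, SE 0.13), Rxrb differed by 0.00023 (SE 0.07) and Rxrg was listed at 0 in every library. The coactivator genes Ncoa1 and Ncoa3 had groups apart, with KO higher by 0.17 (SE 0.072) and 0.12 (SE 0.058), neither called. Among genes that make or remove the sterol ligands, 3 of 8 were tested and 0 called. Sult2b1, which sulphates oxysterols, differed by −0.20 (SE 0.16) and Cyp11a1 by 0.32 (SE 0.24). Cyp11a1 was low, at 0.913, 0.353 and 0.177 FPKM in WT and 0.759, 0.486 and 1.29 in KO. The log2(FPKM + 1) scale understates changes at such levels. Ch25h and Cyp27a1, which make oxysterols, were at most 0.144 and 0.243 FPKM, and Cyp7b1 was listed at 0 in all libraries.

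Of the sterol synthesis and SREBP control genes, all 12 listed were tested and 0 were called. Their fitted values were above 0, from 0.0015 (Fdps) to 0.41 (Insig1), with a median of 0.11 against −0.03 over all genes tested. Those of Fdps and Srebf2 fell below 0 when 1 library was left out, to as low as −0.16 and −0.01. For 7 of the 12, WT replicates 2 and 3 were the lowest libraries, beside 17.0% of all genes tested. Insig1, which holds back SREBP processing, was at 77.6, 51.2 and 49.8 FPKM in WT and 70.0, 70.9 and 95.6 in KO (SE of the difference 0.20). Hmgcs1 and Sqle differed by 0.20 (SE 0.084) and 0.22 (SE 0.13). Srebf2, the main SREBP gene of the sterol pathway, differed by 0.032 (SE 0.062).

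Uptake and storage genes had both signs. Of 14 lipoprotein receptor and lysosomal export genes 11 were tested, 6 higher and 5 lower with a median of 0.031, and 0 were called. Cd36, a fatty acid and lipoprotein receptor gene, was at 72.4, 44.1 and 45.1 in WT and 62.4, 71.6 and 75.1 in KO (0.40, SE 0.19), with the WT replicate 1 value inside the KO range. Lrp1, a large lipoprotein receptor that macrophages express, was at 0.349, 4.06 and 1.36 in WT and 0.178 to 0.286 in KO, with groups apart and a difference of −1.02 (SE 0.44).

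Soat2, the relative of Soat1, was at 0.196, 1.88 and 1.26 FPKM in WT and 0.250 to 0.383 in KO (−0.61, SE 0.31). It led 6 cholesterol ester and lipid droplet genes, 5 of them tested, with Plin2 at 0.13 (SE 0.14) and Plin3 at 0.10 (SE 0.088). None of the 4 acyltransferases tested beside Lpcat3 was called: Lpcat1 differed by 0.062 (SE 0.075), Lpcat2 by 0.14 (SE 0.17), and Mboat7 by −0.032 (SE 0.082), which turned to 0.012 under median-ratio scaling. Of 8 other ABCA and ABCG transporters 6 were tested, 1 higher and 5 lower with a median of −0.085. Abcg2, a drug and urate exporter, was at 1.35, 2.76 and 2.61 FPKM in WT and 1.40, 1.22 and 1.56 in KO (−0.41, SE 0.19), and Abca5 and Abcg3 differed by −0.11 and −0.13.

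Without WT replicate 1, 10 of the 70 genes passed the adjusted p, 6 higher in KO (among them Scd1, Scd2, Apoc2, Cd36 and Insig1) and 4 lower (Lrp1, Soat2, Abcg2 and Tomm40), beside 9.4% of all genes. In limma without that library the log2 differences were 0.96 for Scd2 (adjusted p = 0.0388), 0.63 for Cd36 (0.0148) and 0.62 for Insig1 (0.0498). They were −1.47 for Lrp1 (adjusted p = 0.0416), −0.98 for Soat2 (0.0191), −0.63 for Abcg2 (0.0273) and −0.28 for Tomm40 (0.0339). With all libraries the adjusted p of each gene named here was 0.626, and over the alternatives it ran up to 1.0 for each.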

How the data were processed

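RNA from the 6 cultures was made into libraries with a SMARTer mRNA-seq kit and sequenced as pairs. The authors filtered reads, aligned them to mm10 with TopHat v2.0.12 and Bowtie v2.2.3, counted them per gene with HTSeq v0.6.1 and deposited FPKM values, per the methods and the submitters' processing notes. The annotation release, the strand setting and the treatment of reads with several alignments are not given in the sources used here. Overlapping genes and near-identical copies are therefore uncertain. The members, the gene lists and the markers were chosen with earlier results of these data known.

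Gene symbols came from GENCODE vM21 (46488 of 46983 IDs), and promoters came from RefSeq. Whole reads were recovered from the FPKM of 25715 of the 25717 genes above 0 (99.9922%, tolerance 0.01 reads), which also gave the depths. On 1 kb of gene, a single read equals 0.0269 to 0.040 FPKM, and 1 counted read may be a pair. The recovered gene length was within 2% of the mean annotated transcript length for 67.2% of 9057 genes with several transcripts, so levels between genes depend on it. Intervals cover counting error only.

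Differences (KO over WT) were fitted in R 4.3.3 with limma 3.58.1 (lmFit, then eBayes with the trend option), from values transformed as log2(FPKM + 1), a scale that understates changes of low genes. Genes whose mean FPKM reached 0.5, 13312 in all, were tested, two-sided, with Benjamini-Hochberg adjustment and a threshold of 0.05. The groups came from the sample labels, no column was left out (0) and no 2 libraries were identical. Of each pathway list the text names the genes called with all libraries or without WT replicate 1 and the 3 tested genes with the largest differences, except that some single-gene results are not reported here. Srebf1, Fasn, Lpl, Rxrb, Rxrg, Ncoa3, Srebf2, Fdps, Ch25h, Cyp27a1 and Cyp7b1 were added after their values were seen. The genes most like a member are the 6 nearest to Apoe and the 3 nearest to each other member with a range of at least 1. Alternatives were a pseudocount of 0.1, no filter, a mean FPKM of at least 5, other scalings, other eBayes settings, library weights, a replicate block, voom on recovered reads and each library left out in turn. Python 3.11.15 with pandas 2.3.3, numpy 2.4.6, scipy 1.17.1 and matplotlib 3.10.9 did the rest.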

Additional observations from a re-analysis of the deposited data

How the results depend on the processing

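Under 17 alternatives the members' 134 values of the log2 difference moved by less than the spread between replicates in 133 cases. The exception was Nr1h3, at 0.29 with voom on recovered reads, and its sign turned with library weights (−0.14) and without WT replicate 1 (−0.16) or KO replicate 2 (−0.0086). The filters, eBayes settings and replicate block cannot change this difference. Leaving out 1 of 3 libraries in a group can hardly shift it beyond that spread, so the count does not measure stability. With single libraries left out, the difference ran from 0.65 to 1.55 for Abcg1 and from 0.19 to 0.77 for Apoe. Library weights called 1449 of all genes tested (10.9%), 3 members (Abca1, Abcg1 and Mylip) and 14 of the other pathway genes, where equal weights called 0 of each. Leaving out 1 library in turn gave 0 to 1251 genes, 0 to 3 members and 0 to 10 pathway genes called, and 1 to 7 members with groups apart. All of these calls came from leaving out WT replicate 1, except 1 gene, not a member, without KO replicate 1. The count of members apart was 7 without WT replicate 1, beside 6718 of the 13312 genes tested (50.5%). It was 2 without KO replicate 2, where Nr1h2 joined Abca1, beside 2842 of 13312. Without each other library it was 1, beside 1729 to 2674 of 13312. The other scalings, filters, pseudocount and eBayes settings called 0 genes. Among all genes with groups apart, 541 were higher and 803 lower in KO, against 678 and 676 after median-ratio scaling. A mean FPKM of at least 5 removed Nr1h3 and Mylip from the fit. With the replicate number as a block, 0 genes and 0 members were called and the median member difference stayed at 0.39. The labels and methods name no pairing by replicate number. Same-numbered libraries correlated at −0.0987, 0.139 and −0.276 in their deviations from the group means. With 3 libraries a group and WT replicate 1 far from the other WT libraries, these values cannot decide whether the samples were paired.

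The 3 libraries a group, 1 WT library that lies with KO and reads of 13 to 40 for Nr1h3 and 5 to 30 for Pltp limit these values.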

Other observations

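Around Apoe on chromosome 7, 4 of 8 neighbours were tested, 1 higher (Apoc2, at 8.79, 2.09 and 1.73 FPKM in WT and 9.36, 15.5 and 7.51 in KO) and 3 lower in KO, and 0 were called with all libraries. Apoc2, like Apoe, was lowest in WT replicates 2 and 3. Tomm40, a mitochondrial import gene, was at 50.4, 59.0 and 56.8 FPKM in WT and 47.3, 47.0 and 48.4 in KO, with groups apart and a log2 difference of −0.21 (SE 0.073). Relb, which encodes an NF-κB subunit, was at 36.7, 41.6 and 42.5 FPKM in WT and 34.4, 38.9 and 39.1 in KO, a difference of −0.10 (SE 0.085). Apoc1 and Apoc4, the lipoprotein genes beside Apoe, were at most 0.353 and 0.332 FPKM in any library, while Apoe was at 1091 or more.

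Most of the other lipid-sensing nuclear receptors were silent or near the floor of detection. Rara and Ppard were not, at 50.1 to 65.1 and 17.3 to 21.0 FPKM over the 6 libraries. Of 10 listed genes 3 were tested, Ppard, Rara and Rarg, with lower fitted values in KO of −0.16 (SE 0.074), −0.20 (SE 0.084) and −0.33 (SE 0.19), and 0 were called. Ppara, Nr1i2 and Nr1i3 were listed at 0 in every library. Pparg was at most 0.138 FPKM.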
